A study of Mus musculus with 5 samples.

Results

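A set of 10 genes that mark glial progenitors and glioma stem-like cells was followed in bulk RNA sequencing of tumor-bearing mouse brain: Pdgfra, Olig1, Olig2, Sox10, Cspg4, Gpr17, Sox2, Nes, Prom1 and Egfr. They were chosen by name, and all 10 were found by symbol among the 55573 Ensembl genes of the count files. The libraries came from the right hemisphere of female C57BL/6 mice, 7 to 8 weeks old when GL261 cells were injected into the right caudate putamen. GL261 is a mouse glioma line that grows in immunocompetent C57BL/6 mice, and the cells carried a luciferase/mKate2 vector. All mice had a tumor visible by bioluminescence and were treated on days 21 and 24. The UMBO group (2 mice) received ultrasound-mediated blood-brain barrier opening, which is low-intensity pulsed ultrasound with injected microbubbles, and the vehicle group (3 mice) received dilution buffer. Tissue was taken 24 h after the last session. The labels describe 5 different mice, and each library is 1 mouse, named here by group and replicate (vehicle 1 to 3, UMBO 1 and 2). The study's methods describe a larger number of mice for this experiment, and the rest were not analysed here.

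Oligodendrocyte progenitors are dividing glial cells that are kept in the progenitor state by PDGF signaling through the receptor Pdgfra and that depend on the transcription factors Olig1, Olig2 and Sox10. As they commit to differentiation they pass through a short Gpr17-positive stage before myelin genes come on. Many gliomas use the same genes, and Sox2, nestin (Nes) and CD133 (Prom1) are widely used to mark glioma cells with stem-like properties, while Egfr is a growth factor receptor that gliomas often activate. In bulk tissue, fewer cells of a type and less RNA per cell cannot be told apart, and for none of these genes can tumor cells be told apart from brain cells.

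Each library held 59736771 to 86164159 counted reads, and the members had between 550 and 15371 reads each, so counting error is small beside the spread between mice. The libraries did not group by treatment. On the component with the largest share of the variance (78.7%), UMBO 2 lay at 133.7 and UMBO 1 at -14.1, inside the vehicle range of -68.4 to 17.0. UMBO 2 therefore stood apart from the other 4 libraries, and the fold changes of the members are given below with and without it. Markers of the labelled tissue were present in every library. The neuronal gene Snap25 was at 825 to 3214 CPM (reads scaled to library size by edgeR's TMM method) and the myelin gene Mbp at 2123 to 2537 CPM.

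In the vehicle brains the members spanned a wide range of levels. Per kilobase of exon, Olig1 was the highest at 51.7 ± 8.99 CPM (SD, n = 3) and Egfr the lowest at 1.58 ± 0.343. Sox2 (23.3 ± 3.19), Sox10 (20.9 ± 5.87) and Olig2 (16.9 ± 4.42) followed, apart from Olig1, with Sox2 overlapping Sox10 and Sox10 overlapping Olig2 over the vehicle libraries. Gpr17 came next at 11.0 ± 2.02, apart from both neighbors. Pdgfra (5.99 ± 0.867), Nes (3.60 ± 1.92) and Cspg4 (2.86 ± 0.68) formed a lower group in which each overlapped the next. Prom1 (1.85 ± 0.267) and Egfr also overlapped. The 4 transcription factors thus took the first 4 places per unit of exon length, above the filament and surface proteins.

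**Figure D1:**
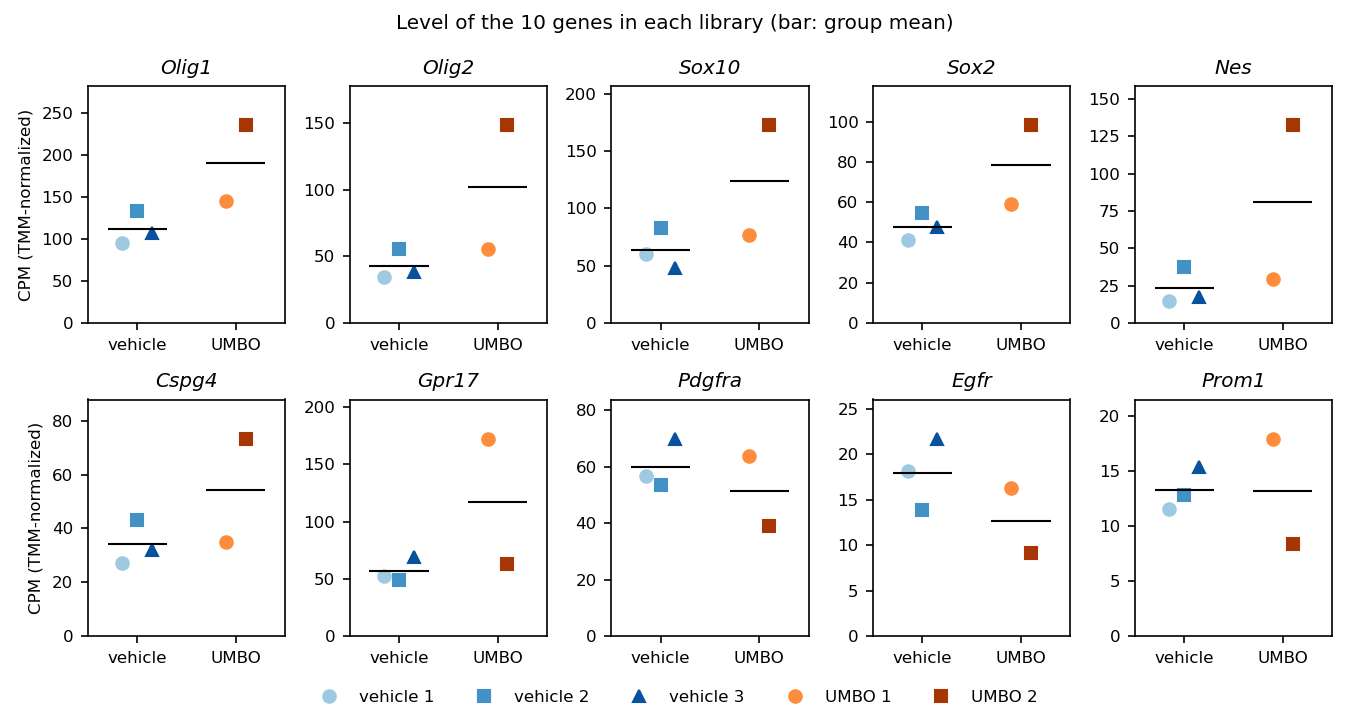
TMM-normalized CPM of the 10 genes in each library, with vehicle on the left and UMBO on the right of each panel, every axis starting at 0 and a bar at the group mean. UMBO 2 is the highest point for Olig1, Olig2, Sox10, Sox2, Nes and Cspg4 and the lowest for Pdgfra, Egfr and Prom1, while Gpr17 is highest in UMBO 1, at 172 CPM.

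The comparison of UMBO with vehicle asked whether opening the barrier went with another level of these genes. No member passed in edgeR's quasi-likelihood test with Benjamini-Hochberg adjustment over the 23592 genes tested, and 0.0% of all genes did. The smallest edgeR adjusted p of any gene was 0.497, and genes with unlike unadjusted p shared it. Olig2 (edgeR unadjusted p = 0.028) and Cspg4 (0.11), for example, both had it, so an adjusted p of 0.497 does not rank genes. DESeq2's Wald test called 0 of the 10 as well, against 0.179% of the genes it gave an adjusted p. Of the 10 members, 5 had an unadjusted p under 0.05, and all 5 (Olig1, Olig2, Gpr17, Sox2 and Nes) were higher with UMBO. The share of all genes with such a p was 5.3% in the higher and 2.06% in the lower direction. The median log2 fold change was 0.74 over the 10 members, 7 higher and 3 lower, and 0.01 over all genes tested. It was 0.33 without UMBO 2 and 1.02 without UMBO 1.

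UMBO 2, the library that stood apart, was the highest or the lowest library for most genes tested, so extremes there are not particular to the members. Of the 10, 6 (Olig1, Olig2, Sox10, Sox2, Nes and Cspg4) were highest in UMBO 2, where 40.4% of all genes were highest. Another 3 (Pdgfra, Prom1 and Egfr) were lowest there, as were 39.8% of all genes. Gpr17 was the remaining one. Gpr17 and Prom1 were highest in UMBO 1, which was the highest library for 8.99% of all genes. The UMBO libraries were both higher than all vehicle libraries for 3 members (Olig1, Olig2 and Sox2), against 11.5% of all genes, and both lower for 0 members, against 11.4%. Scaled by library size only, the members with both higher were again 3 but not the same ones (Olig1, Sox2 and Gpr17), against 13.8% of all genes.

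**Figure D2:**
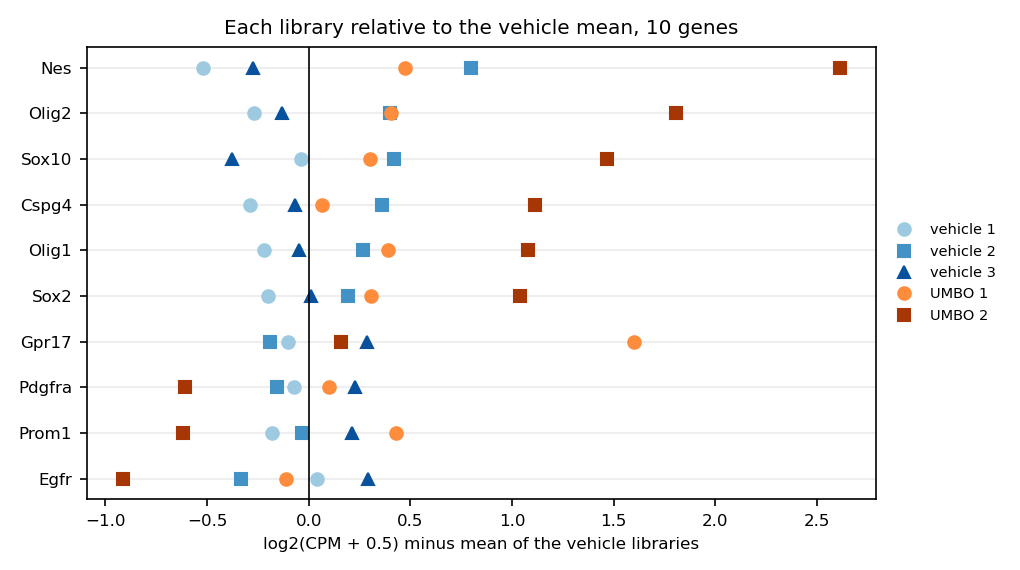
Level of each gene in each library as log2(CPM + 0.5) minus the mean of the vehicle libraries, ordered by UMBO 2. Values in UMBO 2 run from 2.61 for Nes to -0.92 for Egfr, while in UMBO 1 every gene except Gpr17 (1.60) lies between -0.11 and 0.47.

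Olig1 and Olig2 are neighboring genes for basic helix-loop-helix factors that specify oligodendrocyte progenitors. Olig2 (ENSMUSG00000039830, chromosome 16 of GRCm38, 91225457 to 91228677, forward strand) was at 34.7, 55.6 and 38.3 CPM in the vehicle libraries 1 to 3, at 55.6 in UMBO 1 and at 148 in UMBO 2. UMBO 1 was above vehicle 2 by less than 0.1 CPM and below it when scaled by library size only, and UMBO 2 alone was well clear of the vehicle range. Its log2 fold change was 1.25 (standard error, SE, 0.433, edgeR adjusted p = 0.497) and 0.38 without UMBO 2. Olig1 (ENSMUSG00000046160, chromosome 16, 91269772 to 91271933, forward strand) was at 95.2, 133 and 107 CPM with vehicle and at 145 and 235 CPM with UMBO. Here both UMBO libraries were above the vehicle libraries, UMBO 1 by a small margin over vehicle 2. The log2 fold change was 0.76 (SE 0.277, edgeR adjusted p = 0.497) and 0.38 without UMBO 2. The counts of Olig1 relative to Olig2 were 2.40 to 2.80 in the vehicle libraries, 2.61 in UMBO 1 and 1.59 in UMBO 2. The difference in UMBO 2 was thus unequal within the pair, a ratio that does not depend on the scaling.

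Sox10 (ENSMUSG00000033006, chromosome 15, 79154908 to 79165240, reverse strand), which drives the oligodendrocyte program from progenitor to myelin, was at 60.3, 83.0 and 47.6 CPM with vehicle and at 76.4 and 173 CPM with UMBO. UMBO 1 lay within the vehicle range. UMBO against vehicle, the log2 fold change was 0.97 (SE 0.398, edgeR adjusted p = 0.497) and 0.27 without UMBO 2. Sox2 (ENSMUSG00000074637, chromosome 3, 34650405 to 34652461, forward strand), a factor of neural stem cells, was at 41.3, 54.4 and 47.8 CPM with vehicle and at 59.0 and 98.1 CPM with UMBO, with no overlap between the groups. Its log2 fold change was 0.72 (SE 0.26, edgeR adjusted p = 0.497) and 0.30 without UMBO 2. Sox2 is a gene of a single exon that lies in an intron of the long noncoding gene Sox2ot on the same strand, and the annotated exons share 0 bases. Sox2ot went the other way, at 39.9, 38.7 and 43.6 CPM with vehicle and 33.9 and 30.2 CPM with UMBO (log2 fold change -0.35, SE 0.16, edgeR adjusted p = 0.497). It was chosen for its position, after its values were seen.

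Nes (ENSMUSG00000004891, chromosome 3, 87971078 to 87980451, forward strand), the intermediate filament nestin of neural stem cells and of growing vessels, differed most among the members. It was at 14.6, 37.2 and 17.4 CPM with vehicle, at 29.6 in UMBO 1 and at 132 in UMBO 2. Vehicle 2 was above UMBO 1, so the groups overlapped. This gave a log2 fold change of 1.81 (SE 0.678, edgeR adjusted p = 0.497) and 0.36 without UMBO 2. Cspg4 (ENSMUSG00000032911, chromosome 9, 56865033 to 56899870, forward strand), the NG2 proteoglycan of progenitors and pericytes, was at 27.4, 43.1 and 32.0 CPM with vehicle and at 35.1 and 73.2 CPM with UMBO. UMBO 1 again fell within the vehicle range. This gave a log2 fold change of 0.66 (SE 0.354, edgeR adjusted p = 0.497) and 0.04 without UMBO 2.

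The 2 growth factor receptors and CD133 took the other side. Pdgfra (ENSMUSG00000029231, chromosome 5, 75152292 to 75198215, forward strand) was at 56.8, 53.4 and 69.8 CPM with vehicle, at 63.9 in UMBO 1 and at 38.9 in UMBO 2. Only UMBO 2 was outside the vehicle range, on the low side. Its log2 fold change of -0.22 (SE 0.262, edgeR adjusted p = 0.65) was 0.09 without that library. Egfr (ENSMUSG00000020122, chromosome 11, 16752203 to 16918158, forward strand) was at 18.2, 13.9 and 21.7 CPM with vehicle and at 16.3 and 9.13 CPM with UMBO, again with UMBO 2 alone outside the vehicle range. Its log2 fold change was -0.50 (SE 0.327, edgeR adjusted p = 0.501) and -0.14 without UMBO 2. Prom1 (ENSMUSG00000029086, chromosome 5, 43993620 to 44102032, reverse strand), the membrane protein CD133, was at 11.6, 12.9 and 15.3 CPM with vehicle. Its UMBO values, 17.9 and 8.40 CPM, lay on either side of the vehicle range. The log2 fold change was -0.01 (SE 0.351, edgeR adjusted p = 0.988), 0.43 without UMBO 2 and -0.69 without UMBO 1. Pdgfra, Olig1 and Prom1 each share exon bases with a noncoding gene on the opposite strand, and these antisense genes had at most 12 reads in any library.

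Ratios within a library were also taken, since they do not depend on the scaling. The reads of Olig2 per read of Pdgfra were 0.611, 1.04 and 0.548 in the vehicle libraries, 0.87 in UMBO 1 and 3.81 in UMBO 2. For Cspg4 per Pdgfra, the pair of surface proteins used to sort progenitors, the values were 0.482, 0.808, 0.458, 0.549 and 1.88 in the same order. For Prom1 per Nes they were 0.792, 0.346, 0.881, 0.604 and 0.0635. Each of these 3 ratios pairs a gene highest in UMBO 2 with one lowest there. That UMBO 2 lay outside the range of the other 4 libraries therefore followed from those levels. Within the set highest there, Nes per Sox2 was at 1.35 in UMBO 2 and at 0.354 to 0.683 in the other 4 libraries. Egfr per Pdgfra was at 0.321, 0.261, 0.311, 0.255 and 0.235, so it lay between 0.235 and 0.321 over all 5 libraries. Both UMBO values were below the vehicle ones, UMBO 1 (0.255) only by a small margin under vehicle 2 (0.261).

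The promoters of Sox2 and Nes, highest in UMBO 2, are set beside those of Pdgfra and Egfr, lowest there, because the members lay on opposite sides of the vehicle mean in that library. Each is the 250 bases before the RefSeq start site (GRCm38.p6), read 5′ to 3′ on the gene's strand, here the forward strand for all 4. Capitals mark the GC box, searched as GGGCGG on both strands.
Sox2, chr3:34649745-34649994: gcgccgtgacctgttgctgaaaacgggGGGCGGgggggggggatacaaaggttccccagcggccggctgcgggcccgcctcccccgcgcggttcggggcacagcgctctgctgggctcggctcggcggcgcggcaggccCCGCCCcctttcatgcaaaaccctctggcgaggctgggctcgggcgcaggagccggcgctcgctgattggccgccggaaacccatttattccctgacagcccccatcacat
Nes, chr3:87970843-87971092: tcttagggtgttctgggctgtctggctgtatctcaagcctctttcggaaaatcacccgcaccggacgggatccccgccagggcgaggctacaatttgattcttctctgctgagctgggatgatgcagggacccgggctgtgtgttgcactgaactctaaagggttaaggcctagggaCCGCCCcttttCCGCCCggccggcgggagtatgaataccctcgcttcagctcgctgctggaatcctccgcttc
Pdgfra, chr5:75152001-75152250: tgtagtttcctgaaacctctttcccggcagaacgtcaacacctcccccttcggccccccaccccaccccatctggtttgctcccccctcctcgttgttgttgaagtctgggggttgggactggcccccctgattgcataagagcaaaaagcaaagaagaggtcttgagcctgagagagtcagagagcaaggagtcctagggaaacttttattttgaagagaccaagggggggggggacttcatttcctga
Egfr, chr11:16751953-16752202: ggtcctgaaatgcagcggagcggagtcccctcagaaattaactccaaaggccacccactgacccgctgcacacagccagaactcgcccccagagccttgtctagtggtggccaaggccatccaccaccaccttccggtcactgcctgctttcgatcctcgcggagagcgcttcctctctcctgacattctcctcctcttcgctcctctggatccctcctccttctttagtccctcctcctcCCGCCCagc

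A promoter was given for 7 of the 10 members. Sox2, Nes, Olig2 and Cspg4 each held 2 GC boxes, Egfr held 1 and Pdgfra 0, and the 2 start sites of Prom1 held 1 and 0. Of 32851 mouse promoters of this length, 32.7% held at least 1 and 16.7% at least 2. The CANNTG E-box, the letters that bind basic helix-loop-helix factors such as Olig2, was in 66.2% of all promoters and occurred in Pdgfra and in 1 start site of Prom1 alone among the 7. The GC box count was looked at after the levels were known and describes these windows only.

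Gpr17 (ENSMUSG00000052229, chromosome 18, 31942997 to 31949636, reverse strand) followed neither set. This receptor, present for a short time in committed oligodendrocyte progenitors, was at 52.6, 49.4 and 68.9 CPM with vehicle, at 172 in UMBO 1 and at 62.9 in UMBO 2. UMBO 1 stood alone, and UMBO 2 was within the vehicle range. The log2 fold change was 1.04 (SE 0.422, edgeR adjusted p = 0.497), 1.60 without UMBO 2 and 0.12 without UMBO 1. Per read of Pdgfra, however, Gpr17 was at 0.926, 0.924 and 0.987 in the vehicle libraries and at 2.69 and 1.62 in the UMBO libraries, with no overlap. Per read of Olig2 the groups overlapped, at 0.888 to 1.80 with vehicle and at 3.09 and 0.425 with UMBO. Per read of Sox10 they overlapped too, at 0.595 to 1.45 with vehicle and at 2.25 and 0.365 with UMBO. The non-overlap thus depended on the choice of Pdgfra, which was itself lowest in UMBO 2. Gpr17 shares 188 exon bases (3.62% of its exons) with the protein-coding gene Lims2 on the opposite strand, and whether the counting used strand is not given in the sources used here. Lims2 was itself at 10.6 to 12.3 CPM with vehicle and at 22.5 and 21.8 CPM with UMBO (log2 fold change 0.96, SE 0.175). Its adjusted p was 0.497 in edgeR (unadjusted p = 0.0015) and 0.0421 in DESeq2's Wald test.

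Of 10 other genes of committed and newly formed oligodendrocytes, 8 were higher with UMBO and 0 passed in edgeR's adjusted test. An unadjusted p under 0.05 was seen for 5, all higher: Bmp4, Enpp6, Bcas1, Itpr2 and Rras2. Over all 10 the median log2 fold change was 0.56, against 0.01 over all genes tested, 0.44 without UMBO 2 and 0.23 without UMBO 1. Bcas1, a gene of newly formed oligodendrocytes, was at 201, 219.7 and 223 CPM with vehicle and at 329 and 347 CPM with UMBO. Sirt2, a deacetylase of myelinating cells, was at 132 to 143 CPM with vehicle, at 200.2 in UMBO 1 and at 136 in UMBO 2. The secreted factor Bmp4 (4.40, 5.80 and 4.63 CPM against 14.7 and 9.47) and the choline phosphodiesterase Enpp6 (14.3, 11.8 and 11.6 CPM against 32.1 and 16.4) were, like Gpr17, highest in UMBO 1. So was the sialidase Neu4 of the progenitor list, at 8.17, 8.81 and 10.1 CPM against 22.2 and 10.4. Bmp4, Enpp6 and Neu4 were singled out after their values were seen. Of the 10 committed genes, 4 were highest in UMBO 1 and 3 in UMBO 2, and of the 15 progenitor genes 6 and 2. The shares of all genes were 8.99% and 40.4%. Of 12 mature oligodendrocyte genes 10 were lower, 0 of them past edgeR's adjusted test and 1 at an unadjusted p under 0.05. Mbp had a log2 fold change of -0.04 (SE 0.282), and the median over the list was -0.06, or 0.09 and 0.03 without UMBO 2.

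**Figure D3:**
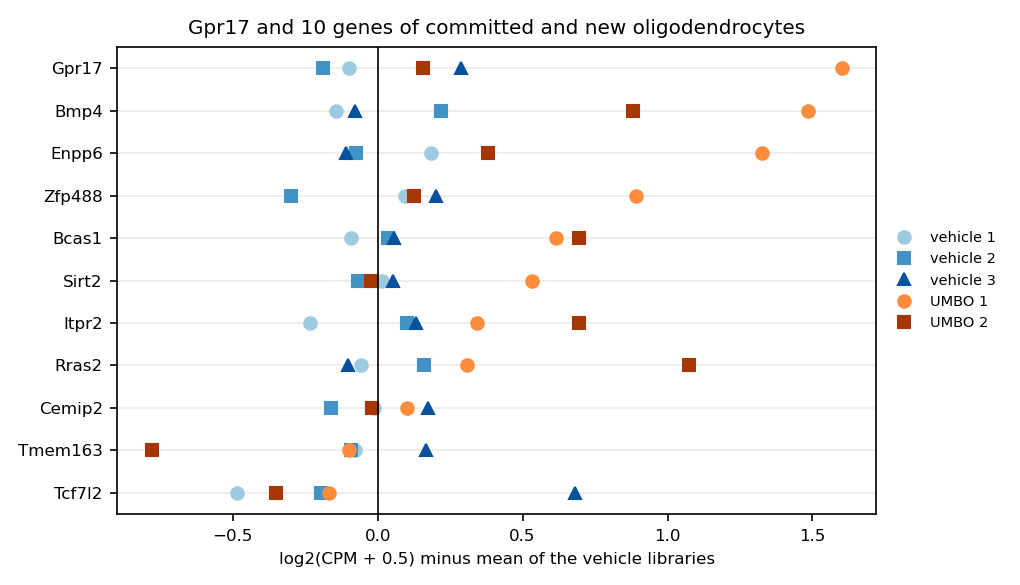
Gpr17 and the 10 genes of committed and newly formed oligodendrocytes, each library as log2(CPM + 0.5) minus the vehicle mean, ordered by UMBO 1. Gpr17, Bmp4 and Enpp6 lie furthest right in UMBO 1, at 1.60, 1.49 and 1.33, and less far in UMBO 2, at 0.16, 0.88 and 0.38.

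Leaving out each library in turn showed which mouse each value rested on. Without UMBO 2 the log2 fold changes of Olig1, Olig2, Sox10, Sox2, Nes and Cspg4 lay between 0.04 and 0.38. Without UMBO 1 they lay between 1.01 and 2.49, and 6 of the 10 members then had an edgeR adjusted p under 0.05, between 0.039 and 0.0405. In that fit 18.3% of all genes passed, and it set 1 UMBO library against 3 vehicle libraries, with the lone library assumed to vary as the vehicle libraries do. No vehicle library decided a sign except for Prom1, whose log2 fold change was 0.11 without vehicle 3.

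**Figure D4:**
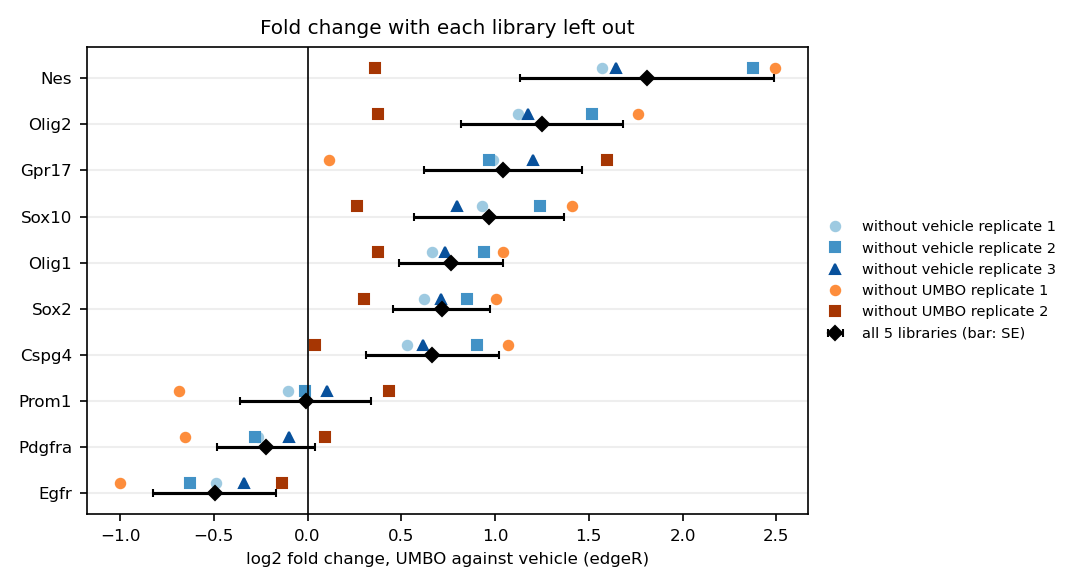
Log2 fold change of each gene from edgeR, UMBO against vehicle, with all 5 libraries (diamond, with its standard error) and with each library left out. The values without UMBO 2 lie nearest to 0 for the 6 genes highest in that library, and that setting is furthest from 0 for Gpr17, at 1.60.

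Other progenitor genes showed no common direction over the whole list. Of 15 genes, 9 were higher and 6 lower with UMBO, and the median log2 fold change was 0.03 (0.19 without UMBO 2). In edgeR's adjusted test 0 passed, and the 4 at an unadjusted p under 0.05 were all higher. Both UMBO libraries were above the vehicle range for 5 of the 15, against 11.5% of all genes. Both were below it for 0, against 11.4%. The 3 with the smallest p were among the 5 above it, which their choice by p in the same comparison makes likely. Nkx2-2, a homeodomain factor that works with Olig2, was at 8.51, 12.1 and 10.1 CPM with vehicle and at 18.0 and 19.6 CPM with UMBO (log2 fold change 0.87, SE 0.219). Scrg1 was at 13.3 to 15.03 CPM against 22.9 and 21.1 CPM, and Sox6, which restrains differentiation of progenitors, at 32.8, 34.8 and 34.0 CPM against 39.8 and 60.6 CPM. All 3 had an edgeR adjusted p of 0.497. Their log2 fold changes without UMBO 2 were 0.81, 0.69 and 0.24.

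Among 20 other genes of neural and glioma stem cells, 13 were higher and 7 lower, at a list median of 0.23 (log2). After adjustment edgeR called 0, and the 5 at an unadjusted p under 0.05 were all higher. Both UMBO libraries were above the vehicle range for 9 of the 20, against 11.5% of all genes. Both were below it for 2, against 11.4%. Id3, an inhibitor of basic helix-loop-helix factors, was at 19.6, 30.8 and 22.1 CPM with vehicle and at 52.3 and 71.4 CPM with UMBO. Its log2 fold change of 1.36 (SE 0.255) stayed above 1 without UMBO 2. The adjusted p was 0.497 in edgeR (unadjusted p = 0.0018) and 0.0393 in DESeq2's Wald test. Fabp7, a fatty acid binding protein of radial glia, had a log2 fold change of 1.06 (0.92 without UMBO 2). Cd44, a hyaluronan receptor of stem-like and mesenchymal glioma cells, had one of 1.81 (0.99 without it).

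Lists for other glioma cell states were measured too. Of 10 mesenchymal genes, 10 were higher and highest in UMBO 2, and their median log2 fold change of 1.97 was 0.53 without that library. Vimentin (Vim) was at 68.4, 249.8 and 83.5 CPM with vehicle and at 278 and 943 CPM with UMBO, and the matrix protein Tnc had a log2 fold change of 1.01 (SE 0.309) that was 0.51 without UMBO 2. Vim and Cd44 are also in the stem cell list. Of 10 neuronal progenitor genes, 7 were higher, with a median of 0.32 that was 0.16 without UMBO 2. Sox4 was at 40.9, 62.6 and 37.3 CPM with vehicle and at 63.1 and 134 CPM with UMBO, Dll3 had a log2 fold change of 0.78 (SE 0.348), and doublecortin (Dcx) had one of -1.10 (SE 0.499). Without UMBO 2 the values of Dll3 and Dcx were 0.38 and -0.55. No gene of the mesenchymal or the neuronal progenitor list passed in edgeR's adjusted test, with 6 and 1 at an unadjusted p under 0.05.

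The ligands and partner receptors of Pdgfra and Egfr were measured beside them. Of 15 genes, 12 had enough counts, 7 of them higher and 5 lower, at a list median of 0.20 (log2) and 0 called by edgeR after adjustment (2 at an unadjusted p under 0.05). That median was 0.17 without UMBO 2 and -0.03 without UMBO 1. Areg, Ereg and Epgn, ligands of Egfr, stayed below 0.2 CPM in every library. Pdgfa, the main ligand of Pdgfra on progenitors, was singled out for that role and was at 51.2, 65.5 and 54.6 CPM with vehicle and at 56.6 and 82.6 CPM with UMBO. Pdgfb was at 23.3 ± 2.56 CPM (SD, n = 3) and 32.2 ± 3.24 (SD, n = 2), a log2 fold change of 0.47 (SE 0.178). The Egfr ligand Hbegf had a log2 fold change of 1.01 (SE 0.389) and the neuregulin receptor Erbb3 one of 0.95 (SE 0.397), which were 0.30 and 0.26 without UMBO 2. Each of these 3 had an edgeR adjusted p of 0.497. Of 12 feedback and output genes of these receptors, 8 were higher and 4 lower, with a median of 0.17 and with 0 called by edgeR after adjustment and 1 at an unadjusted p under 0.05, and a median of -0.04 without UMBO 2. The feedback inhibitor Spry1 (1.26, SE 0.478) and Phlda1 (1.31, SE 0.562) had the largest log2 fold changes of the 3 with the smallest p, and both were carried by UMBO 2, at 0.30 and 0.07 without it. The ETS factor Etv5, also chosen by its p, had a log2 fold change of -0.49 (SE 0.245). Both UMBO libraries were below the vehicle range, as for 11.4% of all genes.

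Markers of some other cell types were also mostly higher with UMBO, and their part in the values above was not tested. No gene of these lists passed in edgeR's adjusted test, while 10 of 10 proliferation, 8 of 8 endothelial, 7 of 8 fibroblast and 7 of 8 microglia and macrophage genes were higher with UMBO. At an unadjusted p under 0.05 these lists had 10, 5, 4 and 5 higher genes, beside 5.3% of all genes. In the other lists, 0 of 8 neuronal, 0 of 8 choroid plexus and 2 of 12 mature oligodendrocyte genes were higher. So were 4 of 8 astrocyte, 5 of 8 pericyte and mural cell and 6 of 7 tested ependymal genes. The 10 proliferation genes summed to 35.7 to 110.4 CPM with vehicle, 115 in UMBO 1 and 484 in UMBO 2, and 10 of 10 were highest in UMBO 2. Top2a, for example, was at 16.5, 38.1 and 9.91 CPM with vehicle and at 38.2 and 175 CPM with UMBO, and Mki67 was at 6.37 to 14.2 CPM with vehicle and at 20.2 and 51.8 CPM with UMBO. For Nes, Olig2 and Top2a alike, UMBO 2 was the highest library, as for 40.4% of all genes, and vehicle 1 and vehicle 3 were the lowest. Those vehicle libraries were also lowest on the component with the largest share of the variance, at -68.4 and -68.2. A link between these genes was not tested. Microglia and macrophage genes summed to 257 to 384 CPM with vehicle and to 484 and 656 CPM with UMBO, with Csf1r at 99.1 to 141 CPM against 190.4 and 173 CPM, and Cx3cr1 at 60.2 to 75.4 CPM against 99.6 and 124 CPM. The 8 neuronal genes were all lowest in UMBO 2, where they summed to 2601 CPM, against 5241 to 8067 CPM with vehicle and 5464 CPM in UMBO 1, and Syt1 was at 382 CPM there against 994 to 1756 CPM with vehicle.

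Cell types that share single members were also measured. Endothelial genes, of interest because vessels can hold nestin, summed to 133 to 185 CPM with vehicle and to 229 and 258 CPM with UMBO, and Cldn5 was at 15.8 to 29.5 CPM against 38.9 and 57.1 CPM while Flt1 overlapped between the groups (log2 fold change 0.12, or 0.20 without UMBO 2). Fibroblast genes, whose cells can hold Pdgfra, summed to 90.8 to 138 CPM with vehicle and to 219 and 254 CPM with UMBO. Col3a1 had a log2 fold change of 1.65 (SE 0.495, and 0.97 without UMBO 2) and Col1a2 one of 0.45 (SE 0.205). Pericyte and mural cell genes, whose cells can hold Cspg4, overlapped between the groups, at 211 to 272 CPM against 309.5 and 241 CPM, with Rgs5 and Vtn at log2 fold changes of 0.25 and 0.28, or 0.72 and 0.14 without UMBO 2. Ependymal genes, whose cells can hold Prom1, overlapped too, at 41.8 to 65.8 CPM against 61.3 and 58.7 CPM, with Foxj1 and Rsph1 at 0.10 and 0.12. Choroid plexus genes were at 814 to 847 CPM with vehicle, 864 in UMBO 1 and 497 in UMBO 2. All 8 choroid plexus genes were lowest in UMBO 2, where Ttr was at 456 CPM and Kl at 8.32 CPM. Among astrocyte genes Gfap, the filament of reactive astrocytes, was at 214, 515 and 388 CPM with vehicle and at 1396 and 1636 CPM with UMBO (log2 fold change 2.03, SE 0.401, DESeq2 adjusted p = 0.00402, edgeR adjusted p = 0.497). The glutamate transporter Slc1a2 was lowest in UMBO 2, at 765 CPM against 1798 to 2887 CPM with vehicle.

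**Figure D5:**
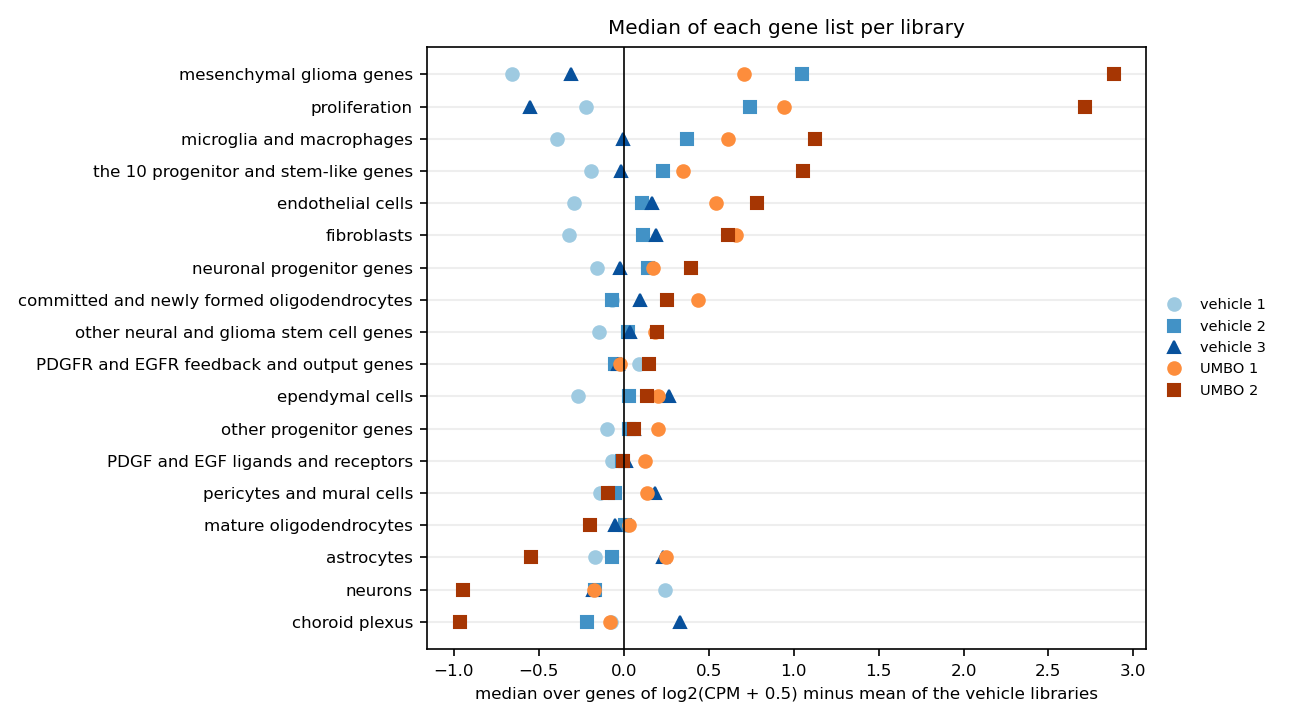
Median over the tested genes of each list of log2(CPM + 0.5) minus the vehicle mean, per library, ordered by UMBO 2. The 10 progenitor and stem-like genes lie at 0.35 in UMBO 1 and 1.06 in UMBO 2, between the microglia and macrophage list (1.13 in UMBO 2) and the endothelial list (0.79), while the mesenchymal and proliferation lists reach 2.88 and 2.71 and the neuronal list is at -0.95.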

How the data were processed

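Total RNA of 5 right hemispheres was prepared with a SMARTER mRNA-Seq kit. The authors mapped the reads with STAR 2.7.2a to GRCm38 and deposited raw read counts per Ensembl gene, without normalization and with 1 table per mouse. The annotation release, the strand setting and any filter are not given in the sources used here. Symbols, positions and exon lengths came from GENCODE M21 (GRCm38), which matched 55480 of the 55573 identifiers. The other genes held at most 0.0017% of a library's counts. Groups and replicate numbers came from the sample titles.

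Counts were normalized by TMM, filtered with filterByExpr and compared, 3 vehicle against 2 UMBO, in edgeR 4.0.16 under R 4.3.3 by its quasi-likelihood test over 23592 genes, at a Benjamini-Hochberg adjusted p of 0.05. The standard error is the log2 fold change divided by the square root of the F statistic. Displayed log2 values add 0.5 CPM. Totals of 59736771 to 86164159 reads leave the number of mice as the limit on precision. All pairs of libraries differed by far more than counting noise (chi-square per gene 58.1 or more). DESeq2 1.42.0, other scalings, no filter, a replicate block and leaving out each library were the alternatives. Non-overlap under library size scaling was added after the data were seen. The fits were tested on simulated data.

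The members and lists were chosen with earlier results of these data known, so nothing was adjusted over a list alone and no list was tested as a set. Named genes were all members, the 3 with the smallest p in each pathway or state list and the 2 with the highest mean CPM in each cell type list, with exceptions marked and 1 gene not reported here. The list symbols Chi3l1 and Tmem2 were read as Chil1 and Cemip2. Promoter sequences are from RefSeq (GRCm38.p6).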

Additional observations from a re-analysis of the deposited data

How the results depend on the processing

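No member passed an adjusted p of 0.05 with other size factors, library size only, no filter on low counts or DESeq2, or without any vehicle library or UMBO 2. With each library left out, the number of members called ranged from 0 to 6 and that of all genes from 0 to 4543, both highest without UMBO 1. DESeq2 called 40 genes and no member. Genes at an unadjusted p under 0.05 numbered 1738, with 4100 when every gene with a count was tested, 2738 with DESeq2 and 296 to 10165 with a library left out. The log2 fold change of Prom1 was positive with scaling by library size (0.077) and with the replicate block (0.013), and ranged from -0.688 to 0.434 with a library left out. That of Pdgfra ranged from -0.654 to 0.092. The cause was not tested. The other 8 kept their sign in every alternative run. The median over all genes tested was 0.01, and 0.13 when scaled by library size alone. With the replicate block, 4 members (Olig2, Gpr17, Sox2 and Nes) and 2337 genes passed, with 6134 at an unadjusted p under 0.05. Only 2 numbers are shared, nothing says that they mark a litter or day, and deviations correlated at 0.453 and 0.76 but are not independent, those of 2 UMBO libraries being mirror images, so the block does not establish pairs. With 3 and 2 mice the main edgeR fit called 0 of 23592 genes, so a gene that was not called cannot be taken as unchanged, whatever the size of its difference.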
